A study of Mus musculus with 35 samples.

Results

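The comparison set 6 arrays of lung resident memory CD8+ T cells (lung Trm) against 3 arrays of unsorted whole lung, chosen by their titles from the 35 arrays of the series, over 10636 genes. All animals were healthy C57BL/6 wild-type females between 8 and 16 weeks of age, and the labels name no transgene, deletion, infection or treatment in any group. For lung Trm, the dissociated organ was separated over steps of 40% and 80% Percoll and its cells were passed through magnetic columns that kept cells carrying CD8b and then cells carrying CD103, an integrin chain by which T cells attach to epithelium. Whole lung was disintegrated without isolating any cell type, and per the series' design it served to show parenchymal cells carried into the sorted samples. Each array received material amplified in 2 rounds from 300 pg of RNA (integrity number above 8.0) and labelled with 1 dye. Blood effector memory cells (Tem), which are non-naive CD8b-positive cells sorted from the blood of the same animals, are given on their 6 arrays beside some values. The corresponding pairs of liver (5 Trm, 3 whole organ arrays) and small intestine (6 and 3) serve below to test where the lung difference departs from that of another organ. The labels do not tie arrays to animals, so the p-values below rest on the spread of these samples, which may in part be technical.

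Resident memory CD8+ T cells are lymphocytes that stay in a tissue after an infection and do not recirculate through blood and lymph nodes. They are usually recognised by CD69 and CD103, and by low levels of the receptors that guide cells out of tissue, such as the sphingosine-1-phosphate receptor S1PR1. Whole lung is built mostly of other cells: flat type 1 and surfactant-producing type 2 cells of the alveoli, club and ciliated cells of the airways, capillary endothelium, fibroblasts, smooth muscle, blood cells and alveolar macrophages.

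Values are log2 scaled signals: the log2 of the processed intensity of a gene's probe minus the 75th percentile of that array, taken over the 1341 probes that were well above background on all 35 arrays. A value of 0 is that percentile, and the lowest signal marked well above background lay between -7.30 and -6.34 on the 6 lung Trm arrays and between -7.29 and -6.97 on the 3 whole lung arrays. In 28.4 ± 3.29% of probes (mean ± SD, n = 6) the lung Trm arrays were well above background, and in 32.7 ± 0.738% (n = 3) the whole lung arrays were. This difference did not pass a two-sided exact permutation test (p = 0.0952, where the smallest possible p was 0.0119), and it was -5.44 percentage points with p = 0.0179 without lung Trm array 6, the smallest p that 5 against 3 arrays allow. Rank correlations across genes within a group ran from 0.842 to 0.963 among lung Trm arrays and from 0.980 to 0.984 among whole lung arrays, and from 0.440 to 0.647 between the groups. The sorted arrays lay on 6 slides scanned on 1 day and the whole-organ arrays on 3 other slides scanned on another day, so slide and scan day cannot be told apart from sorted against unsorted. Among the 22324 probes that were well above background on none of the 9 lung arrays, the median difference was 0.40 on the log2 scale, higher in lung Trm.

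In lung Trm, 1673 genes were called higher and 2746 lower than in whole lung, which is 41.5% of all 10636 genes tested (15.7% higher and 25.8% lower). A gene was called when its adjusted p from limma, over all genes tested, was under 0.05. The median difference over all genes was 0.09 (lung Trm minus whole lung, log2). No lung Trm array overlapped any whole lung array in 5082 genes (47.8%), 3980 of them called. Of the genes called higher, 663 were not well above background on any whole lung array, and of those called lower, 856 were not on any lung Trm array. For such genes a fold is given as a lower bound, in which each array of the dimmer group counts at its detection limit (its lowest signal well above background), or at the gene's own value if that is larger. Without whole lung array 2, 1089 genes were called higher and 2653 lower.

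**Figure D1:**
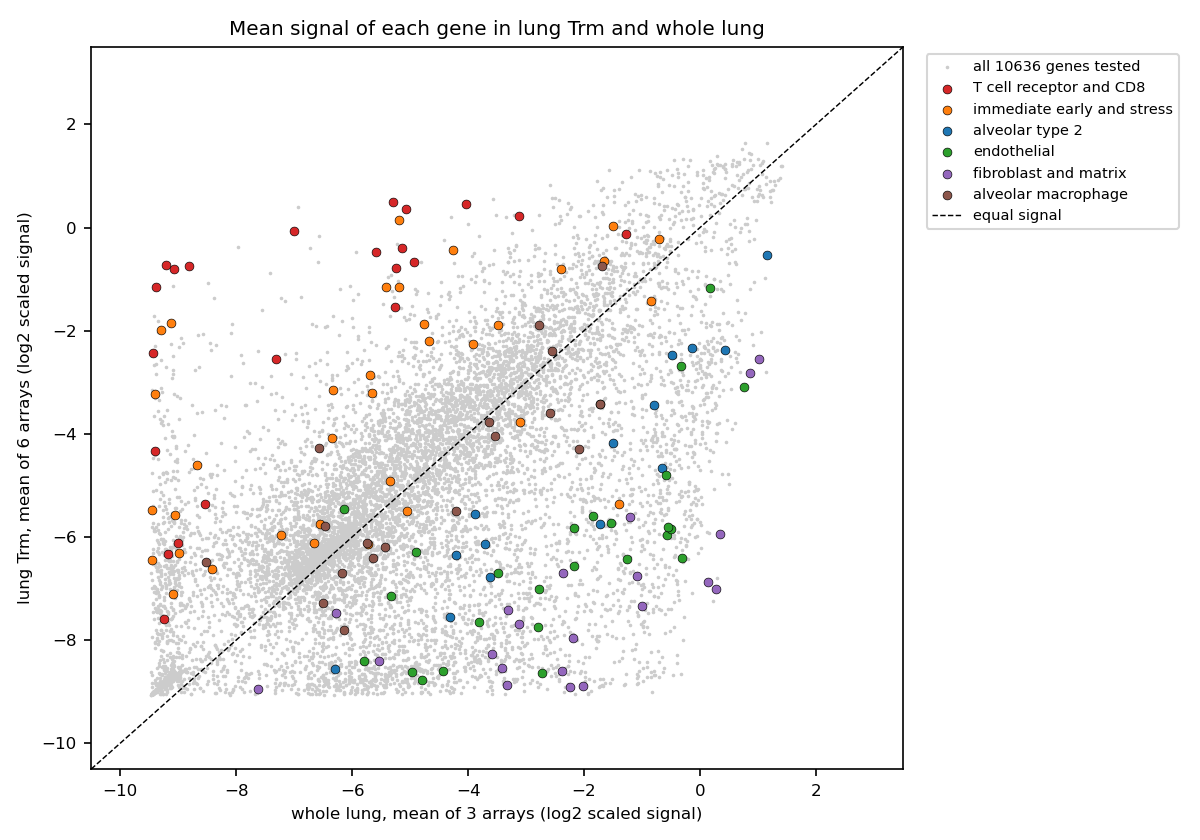
Mean log2 scaled signal of every gene tested on the 3 whole lung arrays (horizontal) and the 6 lung Trm arrays (vertical), with the members of several lists in colour and a dashed line of equal signal. The T cell receptor and CD8 genes lie above the line and the endothelial and fibroblast genes below it, apart from single members near the line.

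Genes of T cell and CD8 identity were mostly higher in lung Trm. In whole lung, 10 of the 22 tested were well above background on every array and 10 on none. Of the 22 tested genes of the T cell receptor, CD8 and their signalling partners, 21 were called higher in lung Trm and none lower, with a median difference of 4.75 against 0.09 over all genes. The higher share was 95.5%, against 15.7% of all genes. In the sentences that follow, 3 values for lung Trm are the lowest, median and highest of 6 arrays, and 3 values for whole lung are its arrays 1, 2 and 3. Cd8a, the CD8 alpha chain, lay at -1.66, -0.57 and -0.32 in lung Trm and at -9.22, -9.38 and -9.05 in whole lung, a difference of 8.48 ± 0.64 (± standard error, adjusted p = 9.29e-12), or at least 84.6-fold. Cd8b1, the CD8 beta chain whose protein was used for the selection, lay at -2.70, -0.85 and -0.77 and at -9.39, -9.54 and -9.20, at least 63.6-fold higher (8.23 ± 0.53, adjusted p = 4.38e-13). Neither gene was well above background on any whole lung array, and lung Trm array 5 was the lowest for both. Cd3e, a signalling chain of the T cell receptor complex, lay at -0.43, -0.01 and 0.21 and at -7.17, -6.64 and -7.23, and differed by 6.95 ± 0.71 (adjusted p = 2.46e-09). The groups were far apart for Cd3e, and its blood Tem median of 0.19 was close to the lung Trm median. Cd3g, another CD3 chain, was at least 80.8-fold higher, Cd6, a T cell costimulatory receptor, at least 83.5-fold and Cd28, the main costimulatory receptor of naive T cells, at least 25.9-fold. Lat, a membrane adaptor of receptor signalling, was the only member not called, with -1.05, 0.02 and 0.32 in lung Trm, -1.55, -1.34 and -0.92 in whole lung and a difference of 1.15 ± 0.56 (adjusted p = 0.101). Ubash3a, a phosphatase of T cells, was called higher (1.65 ± 0.52) although it was well above background on none of the 9 arrays. Ptprc, the pan-leukocyte antigen CD45, was at least 16.5-fold higher (4.47 ± 0.67, adjusted p = 1.71e-06). In bulk samples, fewer cells of a type and less RNA per cell cannot be told apart.

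CD103 itself is encoded by Itgae, which had no named probe here, so the transcript of the second selection marker was not analysed. Among 31 tested genes associated with tissue residency, 8 were called higher and 8 lower (25.8% each, against 15.7% and 25.8% of all genes). The lower count was thus at the share over all genes. The median difference was 0.29 (-0.12 when only the 9 lung arrays were fitted). The higher ones held the best known marker of the state. Cd69, a surface protein that holds T cells in tissue by removing S1PR1, lay at -3.71, -2.51 and -2.07 in lung Trm and at -9.43, -9.60 and -9.24 in whole lung, at least 22.2-fold higher (6.76 ± 0.58, adjusted p = 8.09e-11). Every lung Trm array was above every whole lung array, and the blood Tem range of -4.66 to -3.31 reached into the lung Trm range at the lowest lung Trm array. Cxcr6, a chemokine receptor of resident T cells in lung and liver, lay at -2.08, -1.83 and -1.33 and at -5.90, -6.16 and -5.96, 19.0-fold higher (4.25 ± 0.65, adjusted p = 2.19e-06). Rgs1, a brake on chemokine receptor signalling, was at least 15.0-fold higher and Icos, a costimulatory receptor, differed by 4.76 ± 0.64 (adjusted p = 3.3e-07). The other members called higher were Rgs2, Nr4a1, Itgb7 and Xcl1, with differences from 1.90 to 4.26.

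The residency genes called lower were Pdcd1, Ctla4, Notch1, Nr4a2, Ahr, Prdm1, Cdh1 and P2rx7, with differences from -6.87 to -2.13. When the mean of all kept probes stood for a gene, the list's lower count was 6 and its higher count 9. Nr4a2 was then not called lower. Pdcd1, which encodes the inhibitory receptor PD-1, lay at -8.23, -7.16 and -6.11 in lung Trm and at -0.56, -0.41 and -0.10 in whole lung, a difference of -6.87 ± 0.96 (adjusted p = 6.05e-07). Ctla4, another inhibitory receptor, lay at -6.47, -5.83 and -4.57 and at -2.13, -1.69 and -0.91, a difference of -4.08 ± 0.62 (adjusted p = 2.43e-06). Both were well above background on every whole lung array, and no lung Trm array reached the whole lung values. In whole liver the mean of Pdcd1 was -0.35 and in whole PBMC (blood mononuclear cells) -0.24, both within 1 log2 unit of the whole lung mean of -0.36. The same was measured for Ctla4, Notch1 and Nr4a2. Whole intestine means lay farther off, at -2.47 for Pdcd1, -5.33 for Ctla4, -1.64 for Notch1 and -4.56 for Nr4a2 (whole lung -0.36, -1.58, -0.52 and -1.40). Cdh1, the epithelial E-cadherin that CD103 binds, differed by -2.52 ± 0.56 (adjusted p = 0.000398), with lung Trm array 1 the highest of the 6. Runx3, which sets the CD8 lineage and promotes residency, lay at -9.21, -7.78 and -6.46 and at -9.14, -9.34 and -8.98. Those groups overlapped, it was well above background on 1 lung Trm array, and it was not called (1.45 ± 0.65, adjusted p = 0.0716), though it was without lung Trm array 5 (adjusted p = 0.0274).

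Genes of circulating and naive T cells were also higher in lung Trm than in the organ. Of 25 tested, 17 were called higher and 2 lower (Cx3cr1 and Usp33), with a median difference of 1.89. These are 68% and 8%, against 15.7% and 25.8% of all genes. The lower count was 1 without lung Trm array 3, 5 or 6 or whole lung array 1 or 3. Ccr7, the chemokine receptor that guides T cells into lymph nodes, lay at -0.34, 0.40 and 0.89 in lung Trm and at -6.81, -7.17 and -6.81 in whole lung, a difference of 7.33 ± 0.79 (adjusted p = 6.57e-09). All 6 lung Trm arrays were high for it, and its blood Tem median was 0.87. Dapl1, a gene of naive and memory CD8+ T cells, was at least 64.3-fold higher. Il7r, the interleukin-7 receptor of long-lived T cells, was at least 24.9-fold higher. The transcription factors Satb1, Tcf7 and Lef1 were at least 34.5-fold, 29.3-fold and 6.73-fold higher. S1pr1, the exit receptor, lay at -2.91, -2.33 and -1.68 and at -5.08, -4.98 and -4.73, a difference of 2.62 ± 0.55 (adjusted p = 0.000175). Klf2, which drives S1pr1, lay at -0.03, 0.48 and 0.72 and at -1.62, -1.68 and -1.73. Its groups did not overlap, but the call (2.11 ± 0.77, adjusted p = 0.0257) was lost without any 1 of the whole lung arrays (adjusted p = 0.0639, 0.0686 and 0.0716 without arrays 1, 2 and 3).

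Homing and adhesion receptors were mostly higher. Of 15 tested, 11 (73.3%, against 15.7% of all genes) were called higher and none lower, with a median difference of 3.55. Beside Ccr7 and Cxcr6, these included Ccr9, Cxcr4, Itgb2, Cxcr3, Selplg, Itgb7, Itga4 and Itgal. Ccr9, the gut-homing chemokine receptor, lay at -2.79, -0.85 and -0.15 in lung Trm and at -7.47, -9.55 and -8.44 in whole lung, at least 66.5-fold higher (7.41 ± 0.70, adjusted p = 6.02e-10). Cxcr4, the receptor for a stromal chemokine, was at least 17.4-fold higher. Itgal, the alpha chain of the leukocyte integrin LFA-1, had the smallest difference among those called, 1.85 ± 0.52. Ccr6, Cd44 and Itgb1 were not called, with differences from -0.11 to 0.35.

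Dntt stood out among the genes with the largest differences. It encodes terminal deoxynucleotidyl transferase, which adds bases at the joints of antigen receptor genes in developing lymphocytes. On lung Trm arrays 1 to 6 it lay at -2.92, 0.65, -1.28, -1.37, -5.52 and 0.13, and in whole lung at -9.44, -9.59 and -9.25. It was well above background on every lung Trm array and on no whole lung array, at least 42.7-fold higher (7.70 ± 1.04, adjusted p = 3.33e-07), and its lowest and highest lung Trm arrays were far apart. The blood Tem range was -6.15 to -3.33. Of the 15 named genes with the largest increases, the rest not yet mentioned were Septin1, a filament protein of lymphocytes, Pnrc1, a nuclear receptor coactivator, Fos and Fosb, and Tnfrsf18, the costimulatory receptor GITR, each at least 28.7-fold higher.

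Among 19 tested transcription factors of T cells, 9 were called higher and 5 lower, with a median difference of 1.45. These are 47.4% and 26.3%, against 15.7% and 25.8% of all genes. Beside Satb1, Tcf7 and Lef1, the higher ones held Tox, a factor of developing and chronically stimulated T cells, at -6.02, -4.61 and -3.43 in lung Trm and -9.45, -9.60 and -9.29 in whole lung. All lung Trm arrays lay above all whole lung arrays for Tox, at least 5.19-fold. The 5 lower were Tbx21, Gata3, Prdm1, Ahr and Zeb2. Tbx21, the effector factor T-bet, lay at -5.49, -2.40 and -0.76 and at -0.13, -0.13 and 0.05, a difference of -2.57 ± 0.52 (adjusted p = 0.000127). Whole lung was the brighter sample for it on every array. The whole liver and whole PBMC means of Tbx21, Gata3 and Zeb2 also lay within 1 log2 unit of their whole lung means. In whole intestine the mean of Gata3 was -3.91 (whole lung -0.94). Those of Tbx21 and Zeb2 were -0.18 and -1.08 (whole lung -0.07 and -0.66).

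Among 19 tested cytotoxic effector genes, 8 were called higher and 3 lower, with a median difference of 1.74. These are 42.1% and 15.8%, against 15.7% and 25.8% of all genes. Nkg7, a protein of cytotoxic granules, lay at -0.44, 0.64 and 0.81 in lung Trm and at -4.05, -4.19 and -3.82 in whole lung, a difference of 4.49 ± 0.82 (adjusted p = 3.11e-05). Ctsw, a protease of cytotoxic lymphocytes, differed by 6.41 ± 0.72, Klrd1, the receptor chain CD94, was at least 21.5-fold higher and Cst7, a granule protease inhibitor, at least 32.0-fold higher. These 4 were high on all 6 lung Trm arrays, with array 5 the lowest for Nkg7, Ctsw and Cst7. The granzymes Gzma and Gzmb and the cytokine Ifng were not called (adjusted p = 0.499, 0.281 and 0.134). The lower members were Il2rb, Serpinb6b and Serpinb9. Without whole lung array 2 only 5 members were called higher, and without whole lung array 3 only 1 lower. Serpinb6b, a granzyme inhibitor, differed by -2.08 ± 0.74 (adjusted p = 0.0230), and its call was lost without lung Trm array 6 and without whole lung arrays 1, 2 and 3 in turn (adjusted p from 0.0501 to 0.0844).

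In the checkpoint and costimulatory list, 7 of 14 tested genes were called higher and 3 lower (Pdcd1, Ctla4 and Cd200), with a median difference of 1.66. These are 50% and 21.4%, against 15.7% and 25.8% of all genes. Tnfrsf18 lay at -2.65, -2.30 and -1.99 in lung Trm and at -9.41, -9.58 and -9.21 in whole lung (7.11 ± 0.65, adjusted p = 3.47e-10). Cd96, a receptor of T and NK cells, was at least 16.4-fold higher. All 6 lung Trm arrays were above the whole lung arrays for both. Of 17 cytokine receptors and TGF-beta pathway genes, 6 were called higher and 2 lower (Il2rb and Cish, and 1 without whole lung array 1 or 3), with a median of 0.71. Their shares were 35.3% and 11.8%, against 15.7% and 25.8% of all genes. Il2rg, the common gamma chain, was at least 15.9-fold higher, and Il21r, the interleukin-21 receptor, at least 5.98-fold. Tgfbr1 and Tgfbr2, the receptors for TGF-beta, which induces CD103, were not called (-1.68 ± 0.83 and 0.29 ± 0.56).

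Immediate early genes, which respond within minutes to receptor stimulation or stress, were also high in lung Trm. Of 35 tested immediate early and stress genes, 22 were called higher and 1 lower (Nr4a2), with a median difference of 2.26. These are 62.9% and 2.86%, against 15.7% and 25.8% of all genes. With the mean of all kept probes of a gene, 22 were called higher and 0 lower. Fos, part of the dimeric factor AP-1, lay at -2.21, -1.79 and -1.52 in lung Trm and at -9.16, -9.34 and -8.86 in whole lung, at least 38.7-fold higher (7.26 ± 0.58, adjusted p = 3.71e-11). Its blood Tem range was -7.48 to -4.77, below every lung Trm array and above every whole lung array. Fosb, another AP-1 subunit, was at least 35.4-fold higher, and Dusp2, a phosphatase that ends kinase signalling, lay at -0.26, 0.18 and 0.43 and at -5.18, -5.67 and -4.74 (5.35 ± 0.76, adjusted p = 8.49e-07). Btg2, an antiproliferative gene, differed by 3.18 ± 0.64 (adjusted p = 0.000124), Dusp1, a stress-induced phosphatase, by 2.84 ± 0.64 (adjusted p = 0.000421), and Hspa1a, a heat shock protein, was at least 2.94-fold higher. Sorted cells went through magnetic separation and whole lung did not, and the part of handling in these values was not tested.

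The promoters of Fos, Btg2 and Dusp1 are shown because these 3 genes were called higher and hold TGACG, the core letters of the cyclic AMP response element, in the 250 bases before their start. Sequences are from RefSeq on GRCm38.p6, 5′ to 3′ on the gene's strand, with every match to TGACG on either strand in capitals. The full element TGACGTCA holds TGACG on both strands and appears as 1 run of 8 capitals.
Fos: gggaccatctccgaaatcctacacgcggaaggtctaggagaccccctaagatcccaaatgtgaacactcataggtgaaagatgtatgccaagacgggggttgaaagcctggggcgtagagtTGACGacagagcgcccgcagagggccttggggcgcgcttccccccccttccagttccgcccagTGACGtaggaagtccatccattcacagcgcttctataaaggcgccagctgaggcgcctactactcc
Btg2: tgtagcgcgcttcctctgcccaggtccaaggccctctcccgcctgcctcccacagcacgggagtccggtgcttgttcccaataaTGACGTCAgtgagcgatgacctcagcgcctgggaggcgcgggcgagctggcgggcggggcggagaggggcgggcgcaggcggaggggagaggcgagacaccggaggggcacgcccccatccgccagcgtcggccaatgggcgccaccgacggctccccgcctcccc
Dusp1: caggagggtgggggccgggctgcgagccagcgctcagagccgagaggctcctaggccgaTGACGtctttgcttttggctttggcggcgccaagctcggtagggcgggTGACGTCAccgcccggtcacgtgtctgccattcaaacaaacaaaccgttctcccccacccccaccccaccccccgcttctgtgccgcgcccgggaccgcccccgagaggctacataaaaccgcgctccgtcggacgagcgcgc
These windows lie at chr12:85473640-85473889 (plus strand) for Fos, chr1:134079156-134079405 (minus strand) for Btg2 and chr17:26508473-26508722 (minus strand) for Dusp1. Among the promoters of the 28 tested list members found in the table, 16 of 34 (47.1%) held TGACG, against 17.8% of all 32851 mouse promoters of that length. The full TGACGTCA was in 3 of them (8.82%), against 1.55% of all. These shares cover tested members whatever their call, and Nr4a2, the member called lower by its brightest probe, also holds TGACG. Whether the motif goes with the call was not tested. A match is a string of letters and not a measured binding site.

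Genes of cell division were partly higher. Of 26 tested, 13 (50%, against 15.7% of all genes) were called higher and none lower, with a median difference of 1.74. Without whole lung array 2 the higher count was 7. Hmgb2, a chromatin protein, lay at -4.42, -2.96 and -2.06 in lung Trm and at -6.99, -8.64 and -6.31 in whole lung (4.11 ± 0.62, adjusted p = 1.73e-06). Rrm2, a subunit of ribonucleotide reductase, lay at -9.08, -5.95 and -2.70 and at -8.91, -9.13 and -8.84, and the groups overlapped at the lowest lung Trm array (3.29 ± 0.91, adjusted p = 0.00351). Mcm2, a subunit of the replicative helicase, was at least 2.46-fold higher and Cdc20, an activator of mitotic exit, at least 3.77-fold. Mki67, the best known division marker, was not called (0.79 ± 0.77, adjusted p = 0.457). The summed linear signal of the 26 genes was 5.33 and 4.91 on lung Trm arrays 2 and 6, between 1.17 and 2.63 on the other 4, and between 0.915 and 1.18 on the whole lung arrays. Arrays 2 and 6 were thus set apart from the rest of their group.

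**Figure D2:**
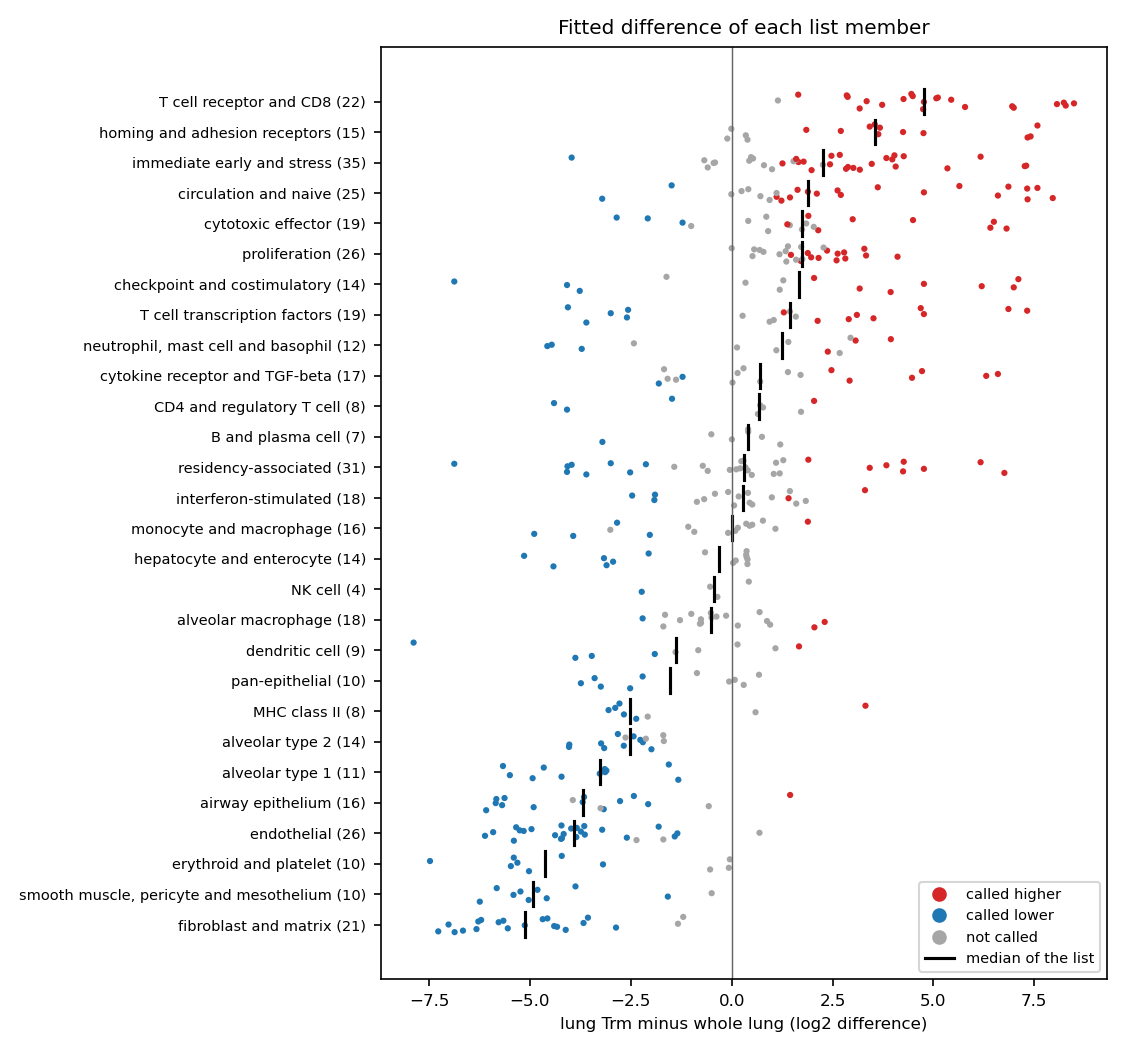
Fitted difference of each list member (lung Trm minus whole lung, log2), 1 line per list ordered by its median (black bar), with the number of tested members in parentheses. Lists of T cell genes lie to the right (median 4.75 for T cell receptor and CD8) and lists of lung structural cells to the left (median -5.13 for fibroblast and matrix), while residency, macrophage and interferon lists spread to both sides.

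Genes of the structural cells of the lung gave some of the lowest list medians. All 11 tested genes of alveolar type 1 cells, the thin gas exchange cells, were called lower, against 25.8% of all genes. Their median difference was -3.27. The count was 10 when any 1 array other than lung Trm array 1 was left out, and 10 under quantile normalization, normexp background correction or the percentile over all probes. Pdpn, the surface protein podoplanin, lay at -9.49, -7.49 and -2.50 in lung Trm and at -0.83, -1.07 and -0.89 in whole lung (-5.67 ± 1.08, adjusted p = 5.39e-05). Clic5, a protein that links membrane to actin, lay at -9.37, -8.05 and -2.70 and at -1.04, -1.31 and -1.28 (-5.50 ± 0.97, adjusted p = 2.08e-05). The whole lung arrays were all high for both, and the highest lung Trm array was array 1. Akap5, a kinase anchor, and Limch1, an actin regulator, differed by -4.93 ± 0.74 and -4.66 ± 0.57. Ager, the receptor RAGE, had the smallest decrease of the 11, -1.32 ± 0.54 (adjusted p = 0.0490).

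Among endothelial genes, 23 of 26 tested (88.5%, against 25.8% of all genes) were called lower and none higher, with a median difference of -3.91. Lyve1, a hyaluronan receptor of lymphatic vessels, lay at -9.37, -8.47 and -7.83 in lung Trm and at -2.32, -2.89 and -2.95 in whole lung, at least 16.2-fold lower (-5.91 ± 0.59, adjusted p = 1.43e-09). Esam, an adhesion molecule of endothelial junctions, lay at -8.69, -6.46 and -4.12 and at -0.38, -0.33 and -0.20 (-6.11 ± 1.25, adjusted p = 0.000142). Lung Trm stayed below whole lung on all arrays for both. Thbd, thrombomodulin, which restrains clotting, differed by -5.34 ± 1.07 and Ace, angiotensin-converting enzyme, by -5.40 ± 0.90. Kdr, the VEGF receptor, Car4, a carbonic anhydrase of capillaries, and Acvrl1, a receptor for bone morphogenetic proteins, were the 3 not called (0.69 ± 0.54, -1.69 ± 0.77 and -2.36 ± 1.00). Pecam1, the pan-endothelial CD31, did not pass the filter on dim probes.

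Fibroblast and matrix genes had the lowest median of all 28 lists, -5.13. Of 21 tested, 19 were called lower (90.5%, against 25.8% of all genes) and none higher. Col1a1, a chain of type I collagen, lay at -9.52, -8.72 and -8.47 in lung Trm and at -1.78, -1.91 and -2.38 in whole lung, at least 26.2-fold lower (-6.87 ± 0.96, adjusted p = 5.83e-07). Col1a2, the other chain, lay at -8.54, -7.37 and -5.10 and at 0.45, 0.27 and 0.08 (-7.27 ± 0.76, adjusted p = 3.42e-09). Neither group overlapped the other for either gene, and Col1a1 was well above background on no lung Trm array. Col3a1, type III collagen, was at least 22.4-fold lower, Ogn, a matrix proteoglycan, at least 20.3-fold lower, and Inmt, a methyltransferase abundant in lung, differed by -7.02 ± 1.11. The 2 not called were Tcf21 and Lum (-1.20 ± 0.57 and -1.33 ± 0.61).

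Smooth muscle, pericyte and mesothelial genes followed the same direction, with a median of -4.92. Of 10 tested, 9 were called lower (90%, against 25.8% of all genes). Acta2, smooth muscle actin, lay at -9.36, -8.09 and -3.10 in lung Trm and at -0.69, -0.59 and -0.90 in whole lung (-6.24 ± 1.32, adjusted p = 0.000200). Its lung Trm arrays spread widely, with arrays 1 and 2 above the rest. Pdgfrb, a pericyte receptor, was at least 13.0-fold lower, and Msln, mesothelin, differed by -5.41 ± 0.59. Of 10 erythroid and platelet genes, 7 were called lower (70%), with a median of -4.62. Hbb-bt and Hbb-bs, 2 beta globins, differed by -7.48 ± 1.04 and -5.31 ± 0.81. Pf4, a platelet chemokine, was at least 10.2-fold lower. Globin genes are near-identical copies, so their probes can share signal.

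**Figure D3:**
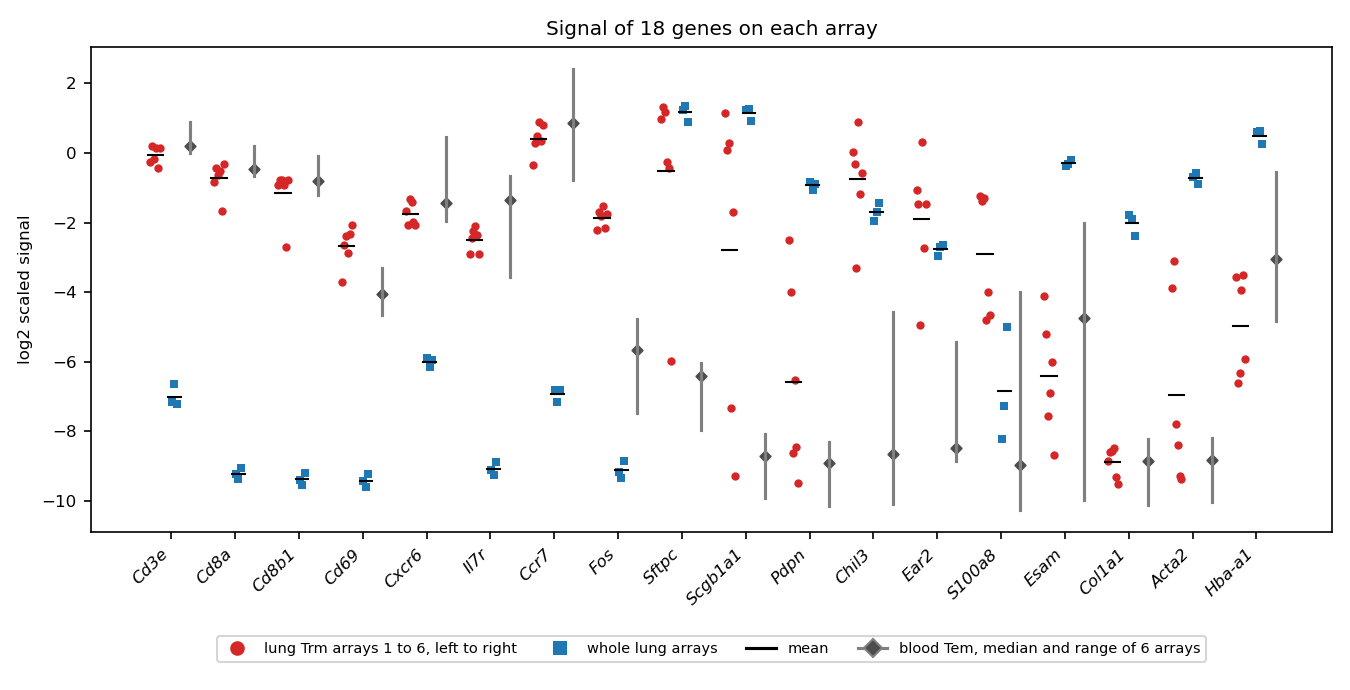
Log2 scaled signal of 18 named genes on each lung Trm array (red, arrays 1 to 6 from left to right), on each whole lung array (blue) and as median and range of 6 blood Tem arrays (grey), with group means as black bars. Cd3e, Cd8a and Fos separate the groups upward and Col1a1, Esam and Hba-a1 downward, while Sftpc, Scgb1a1, Chil3, Ear2 and Pdpn spread over several log2 units among the lung Trm arrays.

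Genes of the surfactant-producing type 2 cells were uneven between the lung Trm arrays. Of 14 tested genes of alveolar type 2 cells, 10 (71.4%, against 25.8% of all genes) were called lower and none higher. The median difference was -2.53. Sftpc, surfactant protein C, lay on lung Trm arrays 1 to 6 at 0.98, 1.33, 1.17, -0.25, -0.43 and -5.98 and in whole lung at 1.24, 1.34 and 0.90. Arrays 1, 2 and 3 were within the whole lung range, arrays 4 and 5 below it and array 6 far below, and Sftpc was not called (-1.69 ± 0.94, adjusted p = 0.153). In blood Tem it ranged over -7.97 to -6.04. Cxcl15, a lung chemokine, lay at -9.42, -6.07 and -1.15 and at -1.43, -1.98 and -1.77 (-4.03 ± 0.96, adjusted p = 0.000781), with lung Trm array 1 above all whole lung arrays. Hc, complement factor 5, and Il33, an epithelial alarmin, differed by -4.02 ± 1.07 and -3.24 ± 0.71. Sftpb, surfactant protein B, differed by -2.43 ± 0.64 (adjusted p = 0.00221), whereas Sftpa1, surfactant protein A, was not called (-2.63 ± 1.09, adjusted p = 0.0507). The summed signal of the 14 genes on lung Trm arrays 1 to 6 was 9.13, 5.36, 3.71, 1.41, 1.01 and 0.274, against 8.65, 7.35 and 6.55 on the whole lung arrays and 0.255 to 0.359 in blood Tem. Lung Trm array 1 was thus above all whole lung arrays and array 6 was in the blood Tem range.

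Only 2 list members, Sftpa1 and Sftpb, held CTCAAG in the 250 bases before their start, and both promoters are shown. These are the core letters bound by the lung factor NKX2-1. The fitted differences of the 2 genes, given above, were similar in size, although only Sftpb was called lower. Matches on either strand are in capitals.
Sftpa1: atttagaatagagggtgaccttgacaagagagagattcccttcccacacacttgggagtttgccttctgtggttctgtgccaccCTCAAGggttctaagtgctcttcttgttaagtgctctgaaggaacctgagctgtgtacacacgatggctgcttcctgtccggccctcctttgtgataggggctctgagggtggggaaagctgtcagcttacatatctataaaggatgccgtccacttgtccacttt
Sftpb: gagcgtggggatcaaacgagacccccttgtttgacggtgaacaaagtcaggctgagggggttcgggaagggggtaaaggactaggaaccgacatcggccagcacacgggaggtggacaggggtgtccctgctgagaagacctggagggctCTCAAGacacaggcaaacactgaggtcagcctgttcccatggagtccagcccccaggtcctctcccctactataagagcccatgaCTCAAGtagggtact
They lie at chr14:41131538-41131787 and chr6:72304360-72304609 on GRCm38.p6, both on the plus strand. Of 12 promoters of 10 list members, 16.7% held CTCAAG, against 13.3% of all promoters of that length.

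Airway genes were lower on average but uneven between arrays. Of 16 tested, 12 were called lower and 1 higher (Trp63, a basal cell factor, 1.45 ± 0.45), with a median difference of -3.68. These are 75% and 6.25%, against 25.8% and 15.7% of all genes. Scgb1a1, the secretory protein of club cells, lay on lung Trm arrays 1 to 6 at 1.15, 0.10, 0.29, -7.34, -1.69 and -9.30 and in whole lung at 1.24, 1.27 and 0.91. Array 1 was within the whole lung range, and arrays 4 and 6 were not well above background. It was not called (-3.94 ± 1.84, adjusted p = 0.0872), though without lung Trm array 1 it was (-4.73, adjusted p = 0.0393). Scgb3a1, a secretoglobin of the larger airways, was at least 32.7-fold lower, and Aldh1a1, an aldehyde dehydrogenase of club cells, lay at -9.58, -5.88 and -1.17 and at 0.40, 0.12 and -0.05 (-6.08 ± 1.44, adjusted p = 0.000776). Dynlrb2, a dynein light chain of cilia, differed by -5.69 ± 0.67. Of 10 genes found in epithelia generally, 5 (50%) were called lower (Krt19, Cdh1, Cldn3, Krt18 and Cldn7), with a median of -1.53. Epcam, the pan-epithelial adhesion molecule, was well above background on none of the 9 arrays. Krt19, a keratin, differed by -2.21 ± 0.77 (adjusted p = 0.0205), a call lost without lung Trm arrays 3 or 6 and without whole lung arrays 1 or 3 (adjusted p from 0.0539 to 0.0642).

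Alveolar macrophage genes gave few calls in either direction. Of 18 tested, 2 were called higher (Ear1 and Atp6v0d2) and 1 lower (Krt19, which the pan-epithelial list also holds), with a median difference of -0.51. These are 11.1% and 5.56%, against 15.7% and 25.8% of all genes. The higher count was 0 without lung Trm array 4 or whole lung array 1, and 1 without lung Trm array 1 or 6 or whole lung array 2. The lower count was 3 without lung Trm array 4, and 0 without lung Trm array 3 or 6 or whole lung array 1 or 3. Chil3, a chitinase-like protein of these cells, lay on lung Trm arrays 1 to 6 at 0.03, -0.31, -3.31, 0.88, -1.17 and -0.57 and in whole lung at -1.95, -1.69 and -1.44 (0.95 ± 0.86, adjusted p = 0.416). Ear2, an eosinophil-associated ribonuclease, lay on the same arrays at -1.05, -1.48, -4.96, 0.32, -2.73 and -1.48 and in whole lung at -2.97, -2.69 and -2.65 (0.88 ± 0.92, adjusted p = 0.496). Array 4 was the highest for both and array 3 the lowest. In blood Tem the medians were -8.64 and -8.47. Ear1, a close relative of Ear2 whose probe may share its signal, was higher by 2.31 ± 0.78 (adjusted p = 0.0160), a call lost without lung Trm array 4 (adjusted p = 0.0508) and without whole lung array 1 (0.0886). Atp6v0d2, a proton pump subunit, was higher by 2.05 ± 0.78 (adjusted p = 0.0333) and lost its call without whole lung array 1 or 2 (0.143 and 0.165). The summed signal of the 18 genes on arrays 1 to 6 was 2.88, 2.10, 0.361, 6.53, 0.939 and 1.72, against 1.78, 1.54 and 1.80 in whole lung and 0.0776 to 0.305 in blood Tem. Array 4 was the highest and array 3 the lowest, and every lung Trm array lay above the blood Tem range.

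Other myeloid lists held calls in both directions. Among 16 monocyte and macrophage genes, 1 was called higher (Plac8) and 4 lower, with a median of 0.00, which was -0.40 without lung Trm array 4. These are 6.25% and 25%, against 15.7% and 25.8% of all genes, so the lower count was near the share over all genes. C1qc and C1qb, complement chains of tissue macrophages, were at least 7.70-fold and 1.26-fold lower, and Aif1, a macrophage actin-binding protein, at least 7.12-fold lower. Ms4a7, a macrophage membrane protein, differed by -2.84 ± 0.95 (adjusted p = 0.0148), a call lost without whole lung array 1 (0.0543) or 3 (0.0582). Among 12 genes of neutrophils, mast cells and basophils, 3 were called higher and 3 lower, with a median of 1.26. These are 25% each, so the lower count was again near the share over all genes. S100a8, a calcium-binding protein of neutrophils, lay at -4.81, -2.70 and -1.24 in lung Trm and at -8.23, -7.28 and -5.01 in whole lung. Whole lung array 3 came close to the lowest lung Trm array without reaching it, and the call (3.95 ± 1.21, adjusted p = 0.00805) was lost without whole lung array 1 (adjusted p = 0.0695). Its blood Tem range was -10.26 to -4.00. The higher count of this list was 1 without whole lung array 1 or 2, 5 without lung Trm array 4 and 7 without lung Trm array 6. Gata2, a factor of mast cells and progenitors, was at least 7.37-fold lower and Kit, the stem cell factor receptor, differed by -4.46 ± 0.59.

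Genes of MHC class II presentation were mostly lower: 5 of 8 were called lower and 1 higher, with a median of -2.52. These are 62.5% and 12.5%, against 25.8% and 15.7% of all genes. H2-DMb1, a peptide loading chain, lay at -5.86, -4.54 and -2.65 in lung Trm and at -1.19, -1.57 and -1.17 in whole lung (-3.05 ± 0.83, adjusted p = 0.00294). H2-Aa, a class II alpha chain, lay at -9.30, -8.47 and -5.65 and at -5.96, -6.47 and -5.59. The groups overlapped at the highest lung Trm array, and of the fits that left out 1 array, H2-Aa was called only in that without lung Trm array 1 (adjusted p = 0.0337 against 0.0913). H2-Eb1, a beta chain, differed by -2.89 ± 1.12 (adjusted p = 0.0372), and its call was lost without lung Trm array 3, 5 or 6 and without any 1 of the whole lung arrays (adjusted p from 0.0628 to 0.102). In each of those 6 fits the list's lower count was 3. H2-Oa, a chain that regulates peptide loading, was the member called higher (3.32 ± 0.57), and H2-Ob, its partner chain, differed by -2.78 ± 0.62, although another probe of H2-Ob was called in the opposite direction. Among 9 dendritic cell genes, 4 were called lower and 1 higher (Siglech, not called without whole lung array 3), with a median of -1.39. Their shares were 44.4% lower and 11.1% higher. Cd209a, a lectin of dendritic cells, and Clec10a, another lectin, were at least 3.25-fold and 3.19-fold lower.

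The lists of other lymphocytes had few tested members. Of 8 genes of CD4 and regulatory T cells, 1 was called higher (Tnfrsf4) and 3 lower (Lrrc32, Ctla4 and Zbtb7b), with a median of 0.68. These are 12.5% and 37.5%, against 15.7% and 25.8% of all genes. The Zbtb7b call was lost without lung Trm array 6 or whole lung array 1 (adjusted p = 0.0716 and 0.0942). Cd4, which marks the helper lineage that CD8b selection should leave behind, lay on lung Trm arrays 1 to 6 at -5.54, -0.36, -3.66, -4.41, -5.35 and -1.16 and in whole lung at -5.45, -4.91 and -5.03 (1.72 ± 0.97, adjusted p = 0.163). For Cd4, arrays 2, 3, 4 and 6 lay above every whole lung array, arrays 2 and 6 by the most, and the groups overlapped at the others. Arrays 2 and 6 were also the 2 highest for Dntt and for the summed proliferation signal. Whether these values go together was not tested. Tnfrsf4, a costimulatory receptor, differed by 2.04 ± 0.67 (adjusted p = 0.0132, and 0.0855 without whole lung array 2). Of 7 B and plasma cell genes only Ebf1, a B lineage factor, was called, with a difference of -3.20 ± 0.49. Of 4 NK cell genes only Klra8, an NK receptor, was called, with a difference of -2.23 ± 0.77 (adjusted p = 0.0185), a call lost without lung Trm array 6 or whole lung array 3 (0.0634 and 0.0923). The 1 lower call made up 14.3% of the B and plasma cell list and 25% of the NK list. Ncr1, the NK receptor NKp46, was not called (0.43 ± 0.50).

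**Figure D4:**
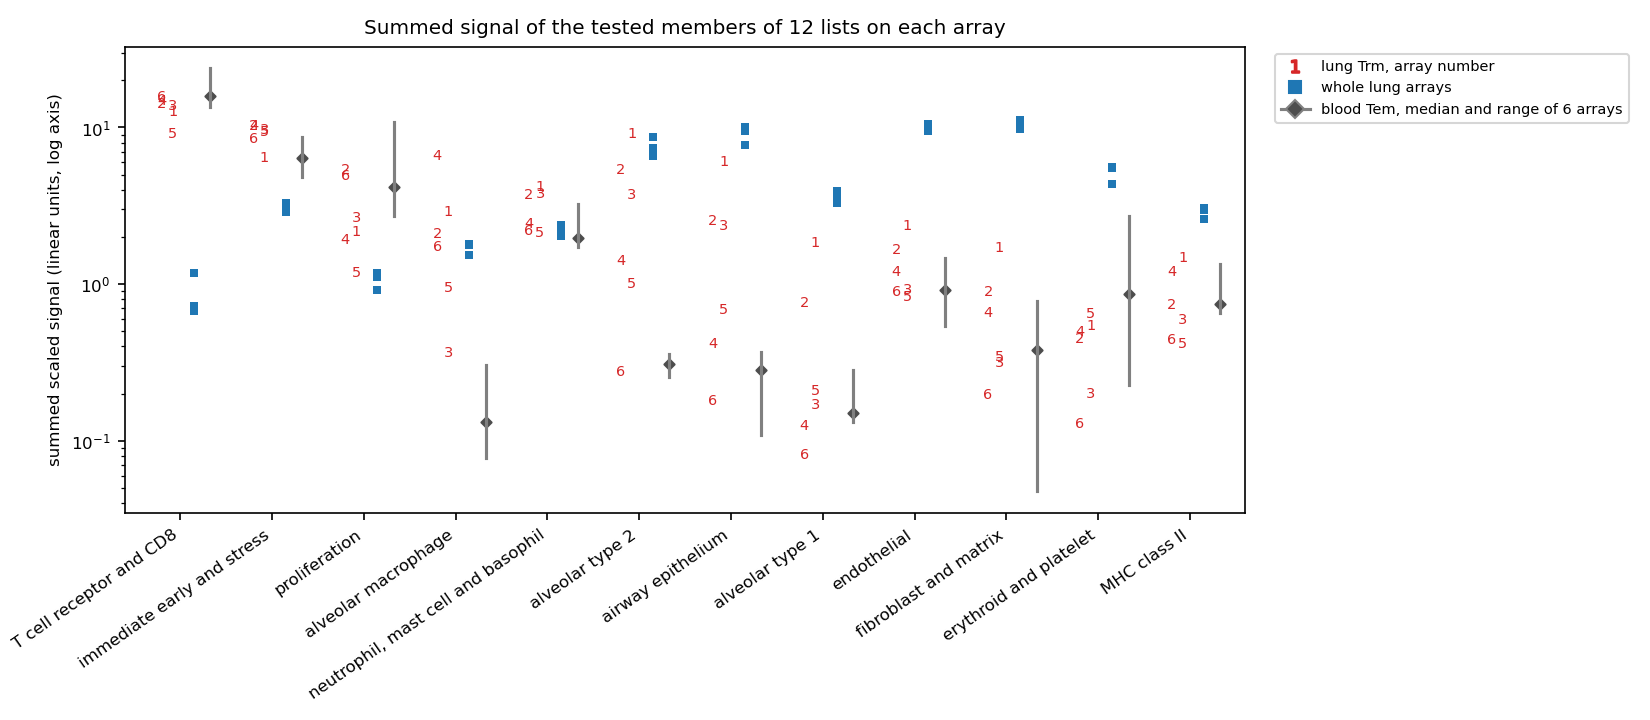
Summed linear scaled signal (log axis) of the tested members of 12 lists on each lung Trm array (red array numbers), each whole lung array (blue) and as median and range of 6 blood Tem arrays (grey). T cell receptor and CD8 sums lie between 9.03 and 15.7 in lung Trm and at most 1.17 in whole lung, whereas the alveolar type 2, airway and macrophage sums spread over more than 1 order of magnitude among the lung Trm arrays.

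The lists that varied most among the lung Trm arrays peaked on different arrays. The alveolar type 1 sum was 1.83 on lung Trm array 1 and between 0.0810 and 0.756 on the other 5, against 3.31 to 3.90 in whole lung. The airway sum was 6.00 on array 1 and 0.180 on array 6. Array 1 thus carried the most epithelial signal, while array 4 carried the most alveolar macrophage signal (6.53) with a low airway sum (0.418). The T cell receptor and CD8 sum was lowest on array 5 (9.03) and lay between 12.5 and 15.7 on the other 5. Endothelial sums were between 0.828 and 2.36 in lung Trm, with 0.544 to 1.48 in blood Tem, and fibroblast sums between 0.195 and 1.71, with 0.0475 to 0.777 in blood Tem. The part of carried-over cells in the differences of single genes was not tested.

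The 15 genes with the largest decreases, among those with an official symbol and detected on every whole lung array, held 1 member of the 28 lists, Xcr1. They included Bmp5, Olfr495, Olfr133, Slc7a8, Cldn15, Enox1, Xcr1, Tram2, Rab30, Elavl3, Ccdc39, Olfr770, H2al1a and Olfr1, a set with 4 olfactory receptors and the neuronal RNA-binding protein Elavl3. Bmp5, a bone morphogenetic protein, lay at -9.25, -8.47 and -8.28 in lung Trm and at -0.67, -0.50 and -0.23 in whole lung, at least 77.1-fold lower (-8.21 ± 1.28, adjusted p = 3.43e-06). Xcr1, a chemokine receptor of cross-presenting dendritic cells, lay at -9.46, -8.65 and -8.29 and at -1.11, -0.80 and -0.61, at least 59.4-fold lower (-7.88 ± 1.28, adjusted p = 5.86e-06). Both were well above background on no lung Trm array and on all 3 whole lung arrays. All 15 had whole liver and whole PBMC means within 1 log2 unit of their whole lung mean, as did 864 of all 2746 genes called lower (31.5%) and 24 of the 142 list members called lower (16.9%). For Bmp5 these means were -0.58 and -0.53, beside -0.47 in whole lung. The whole intestine means of the 15 genes lay more than 1 log2 unit below whole lung, apart from Slc7a8 and Cldn15. These 2 lay at -0.86 and -0.57 in whole intestine, beside -0.62 and -0.77 in whole lung. For Bmp5 the whole intestine mean was -3.72 and for Xcr1 -3.84. The 24 members include Pdcd1, Ctla4, Xcr1, Tbx21, Gata3, Zeb2, Esam, Ace, Hba-a1 and Cxcr2, and only 2 of the 21 fibroblast genes (Mfap4 and Npnt). The whole-organ arrays, whole intestine included, and the PBMC arrays shared slides and a scan day. The part of slide and scan day was not tested, and the closeness of the whole-sample means was looked at after the values were seen.

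To ask what was particular to lung, the lung difference was compared with the liver difference (liver Trm minus whole liver) in the same fit. The 2 differences departed in 1700 genes (16%), 913 with the higher difference in lung (8.58%) and 787 with the lower (7.4%). Among the lists, the lower side held 12 of 26 endothelial, 10 of 21 fibroblast, 7 of 11 alveolar type 1, 7 of 10 smooth muscle, 6 of 16 airway and 4 of 14 alveolar type 2 genes. Ogn differed by -6.21 in lung and 0.70 in liver, an interaction of -6.91 ± 0.85 (adjusted p = 4.52e-07). Pdpn differed by -5.67 in lung and 0.67 in liver (-6.33 ± 1.55, adjusted p = 0.00367), and Thbd by -5.34 and 1.32 (-6.66 ± 1.53, adjusted p = 0.00208). All 3 were lower in lung Trm than in the organ, whereas their liver differences were above 0. Acta2, Actg2, a smooth muscle actin, and Car4 gave interactions of -6.70 ± 1.89, -6.17 ± 1.49 and -6.78 ± 1.11. Car4 was not called in lung (-1.69 ± 0.77) and differed by 5.09 in liver.

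On the other side, 2 of the 22 T cell receptor and CD8 genes and 2 of the 14 checkpoint genes had the higher difference in lung. Of each list, 1 gene had the lower difference. Over all genes the shares were 8.58% higher and 7.4% lower, so the T cell receptor count was near that share. Sh2d1a, the adaptor SAP, differed by 5.07 in lung and 1.91 in liver (3.16 ± 0.84, adjusted p = 0.00727), Cd96 by 6.20 and 3.35 (2.85 ± 0.84, adjusted p = 0.0169) and Tox by 4.69 and 1.25 (3.44 ± 1.07, adjusted p = 0.0242). Dntt differed by 7.70 in lung and -1.03 in liver (8.73 ± 1.49, adjusted p = 6.43e-05). For S1pr1 and Klf2 the lung difference was smaller than that of liver, with interactions of -2.94 ± 0.79 (adjusted p = 0.00795) and -3.17 ± 1.11 (adjusted p = 0.0457). Tk1, thymidine kinase, gave 4.50 ± 1.39 (adjusted p = 0.0229), while Apoa1 and Fabp2, lipid carriers of liver and gut, gave 3.75 ± 0.72 and 3.55 ± 1.25 (adjusted p = 0.000277 and 0.0474) and were well above background on none of the 9 lung arrays. The Fabp2 call was lost without lung Trm arrays 1, 2, 3 or 4 and without each whole lung array (adjusted p from 0.0562 to 0.0997), the Tox call without whole lung array 1 or 2 (0.05004 and 0.0586), and the Tk1 call without whole lung array 2 (0.0546). Under quantile normalization all 5 calls of Tox, Cd96, Sh2d1a, Tk1 and Fabp2 were lost (adjusted p 0.128, 0.238, 0.0552, 0.134 and 0.208), with a Cd96 interaction of 1.39, and likewise with the deposited log2 table. The split into higher and lower differences had no settled direction. The counts higher and lower in lung were 726 and 1017 with normexp background correction, 785 and 989 under quantile normalization, 785 and 990 with the deposited table and 801 and 987 with the percentile over all probes. They were 1032 and 1220 with only the 4 groups, 812 and 854 without lung Trm array 1 and 592 and 652 without whole lung array 2. Liver Trm array 3 and whole liver array 2 stood apart in detection (12.2% and 64.7% of probes), as did blood Tem array 3 and whole PBMC array 1. Without these 4 arrays the counts were 988 and 1444, and Tox, Cd96, Sh2d1a and Fabp2 were no longer called (adjusted p 0.131, 0.0897, 0.0709 and 0.0679).

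**Figure D5:**
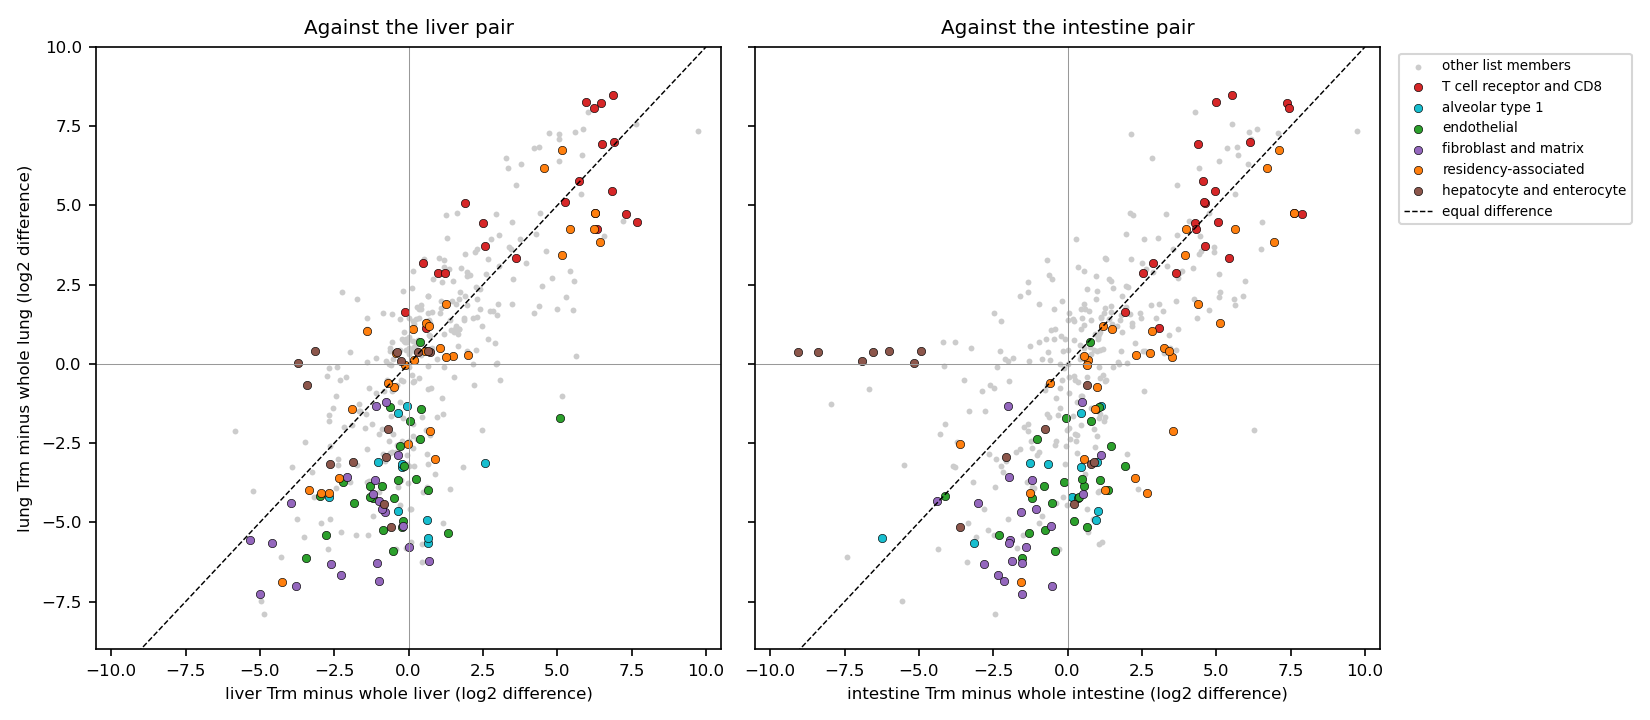
Difference of each list member in lung (lung Trm minus whole lung, vertical) against that in liver (left) and small intestine (right), all log2, with selected lists in colour and a dashed line of equal difference. Most fibroblast, endothelial and alveolar type 1 genes lie below the line in both panels, and enterocyte genes such as Lct lie far left in the intestine panel at lung differences near 0.

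The lung difference departed from the intestine difference (intestine Trm minus whole intestine) in 2349 genes (22.1%), 1043 higher (9.81%) and 1306 lower (12.3%) in lung. This split turned to 1301 and 1125 with the percentile over all probes and to 1256 and 1204 without lung Trm array 5. Structural lung genes again lay on the lower side, with 17 of 26 endothelial, 14 of 21 fibroblast and 8 of 11 alveolar type 1 genes. Sec14l3, a lipid transfer protein of airway cells, differed by -5.63 in lung and 1.16 in intestine (-6.79 ± 1.28, adjusted p = 0.000133). Dynlrb2, Inmt and Hbb-bs gave interactions of -6.76 ± 0.95, -6.49 ± 1.57 and -5.99 ± 1.15. The list members with the largest interactions on the higher side were enterocyte genes. Lct, lactase, differed by 0.37 in lung and -9.06 in intestine (9.43 ± 0.87, adjusted p = 4.27e-10), and Sis, sucrase-isomaltase, by 0.36 and -8.38 (8.74 ± 0.75). Apoa4, Vil1, Fabp1 and Alpi gave interactions of 7.03 ± 0.79, 6.92 ± 0.85, 6.68 ± 1.32 and 6.40 ± 0.63. Lct, Sis, Apoa4, Vil1 and Alpi were well above background on none of the 9 lung arrays.

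Against intestine, 12 of the 31 tested residency genes had the lower difference in lung and none the higher (Pdcd1, Icos, Ctla4, Prdm1, Ahr, Xcl1, P2rx7, Tigit, Abi3, Isg20, Gpr34 and Nr4a2), and against liver 2 did. Ctla4 differed by -4.08 ± 0.62 in lung and 2.67 in intestine (-6.75 ± 0.88, adjusted p = 4.91e-07). Serpinb6b gave -2.08 in lung and 6.27 in intestine (-8.35 ± 1.05, adjusted p = 2.41e-07). Cd69 gave -0.34 ± 0.81 and was not called (adjusted p = 0.807), and Cxcr6 gave -1.38 ± 0.91 (adjusted p = 0.308). Fos was raised more in lung than in intestine (5.14 ± 0.82, adjusted p = 1.5e-05), as was Dntt (6.04 ± 1.47, adjusted p = 0.00246), and S1pr1 less (-3.35 ± 0.77, adjusted p = 0.00149). Of the 35 immediate early genes, 1 had the higher and 1 the lower difference in lung, and Fosb gave 0.23 ± 1.14 (adjusted p = 0.908). Of 26 proliferation genes, 6 had the higher difference in lung. Of the 15 named genes with the largest decreases, 0 departed from the liver difference and 11 from the intestine difference. Of the 15 named genes with the largest increases, 1 and 5 did. Without the 4 arrays that stood apart in detection the intestine counts were 1328 higher and 2577 lower. None of those 4 is a lung or intestine array, so they enter this contrast only through the scaling, the filter and the shared spread.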

How the data were processed

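Per the file headers, the deposited scanner files hold processed intensities of 43020 spots (39429 probes, 27508 of them named for 20886 genes) from Feature Extraction 11.0.1.1; the submitters' processing notes name Feature Extraction 10.7 and Partek. The deposited series table of log2 values differed from a quantile normalization of these intensities by a median of at most 0.000465 per array and served as an alternative. The log2 of each intensity was taken minus the array's 75th percentile over probes detected on all arrays. Kept probes were above background on 3 or more arrays in some group, and where a gene had several, the one with the highest mean stood for it. A model in limma 3.58.1 (R 4.3.3) was fitted to all 35 arrays in 8 groups (27 residual degrees of freedom), with Benjamini-Hochberg adjustment over 10636 genes. On simulated data of 10632 genes, changes of 1, 2, 3 and 4 log2 units were called in 6%, 42%, 82% and 92% of 50 genes each. No other gene differed there between lung Trm and whole lung, whereas 41.5% were called in the real data. These rates may therefore not carry over. The number of arrays limits the precision.

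The members and lists were chosen with earlier results of these data known. The genes named are the 15 with the largest difference each way, the 4 with the largest in each of 28 lists, a fixed panel, the 6 list members each way in each comparison with another organ, and the 6 of the list or panel genes most variable among lung Trm arrays; further list members, named to complete a count or a role (Lat, Tbx21, Btg2, Dusp1, Sftpb and others), were chosen after their values were seen. Of 541 list genes 418 were tested. Alternatives varied the scaling, background correction, filter, probe choice, weights, blocks and arrays. Same-numbered arrays were not paired in the labels, and sequences were matched to RefSeq by symbol. Some genes that the rule would name are not reported here.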

Additional observations from a re-analysis of the deposited data

Results flagged for a closer look

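Within the 6 lung Trm arrays, 1 array stood apart from the other 5 (Dixon's gap test at the 95% level) in 17 of 175 values. The 1 in 20 that chance gives does not apply to this count, since some of these genes were chosen for their spread and all share the arrays. Array 5 was the low one for 8 T cell or lymphoid genes: Cd8b1 (-2.70), Septin1 (-2.65), Pnrc1 (-3.17), Cst7 (-2.80), Ctsw (-1.05), Nkg7 (-0.44), Il2rg (-4.82) and H2-Oa (-3.15). It was also the low one for Oasl2 (-7.64), which was well above background on 5 of the 6 arrays, and for C1qb (-8.99), which was so on none and has no measured order. Array 6 was low for H2-Ob (-6.06) and Sftpc (-5.98). Array 1 was low for Rgs1 (-4.29) and high for the epithelial genes Dynlrb2 (-3.91) and Cdh1 (-6.40) and for the summed signal of the pan-epithelial list (0.911). Array 4 was high for Ms4a7 (-5.64).

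The difference between lung Trm and whole lung departed from that of liver in 1700 genes and from that of intestine in 2349 by limma's interaction test. Among the genes named against liver, the lung difference was higher for Tk1 (4.50), Apoa1 (3.75), Fabp2 (3.55), Tox (3.44), Sh2d1a (3.16) and Cd96 (2.85). It was lower for Ogn (-6.91), Car4 (-6.78), Acta2 (-6.70), Thbd (-6.66), Pdpn (-6.33) and Actg2 (-6.17). Against intestine it was higher for Lct (9.43), Sis (8.74), Apoa4 (7.03), Vil1 (6.92), Fabp1 (6.68) and Alpi (6.40), and lower for Serpinb6b (-8.35), Sec14l3 (-6.79), Dynlrb2 (-6.76), Ctla4 (-6.75), Inmt (-6.49) and Hbb-bs (-5.99).

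Of the 11921 probes with no gene name, 191 were well above background on every lung Trm array and on no whole lung array, and 225 on every whole lung array and on no lung Trm array. Among the 27508 named probes these counts were 329 and 1020.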

How the results depend on the processing

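Of the 127 called genes among the 146 named for the comparison of lung Trm with whole lung, 108 kept their direction and call in every alternative in which they were tested (22, but 21 for Alb), 19 lost the call in at least 1 and 0 reversed; 10 of the 19 not called gained a call in at least 1. Asking for a change of over 2-fold left 2562 genes, with 709 for the comparison with liver and 1108 with intestine; array weights gave 7794 (4067 higher and 3727 lower, which turns the split), 5634 and 5020. The intestine count was 3639 with only its 4 groups and 3905 without the 4 arrays that stood apart in detection, an alternative chosen after seeing the data, under which lung Trm against whole lung gave 5485. Leaving out 1 array gave 3742 to 4523 genes for lung Trm against whole lung, 1244 to 1983 against liver, 1802 to 2460 against intestine, and a detection difference from -5.44 to -3.57 percentage points, which was -1.18 by the positive-and-significant flag (exact permutation p = 0.560). The median difference over all genes was 0.23 with the percentile over all probes, -0.30 with only the 9 lung arrays and -0.31 without the 4 arrays. The cause of these shifts was not tested. With the replicate number as a block, which the labels do not pair, 4359, 1650 and 2337 genes were called, and same-numbered lung Trm and whole lung arrays correlated in their deviations at 0.087, -0.080 and 0.13. Genes below background on an array have no measured order there, and on simulated data, in which few genes changed, most 1-unit changes were missed.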

Other observations

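Interferon-stimulated genes showed no common direction. Of 18 tested, 2 were called higher in lung Trm (Zbp1, a sensor of left-handed nucleic acids, 3.30 ± 0.57, and Irf7, the main transcription factor of the response, 1.41 ± 0.49) and 3 lower (Oasl1, Ifi44 and Oasl2), with a median difference of 0.29 against 0.09 over all genes. The shares were 11.1% higher and 16.7% lower, against 15.7% and 25.8% of all genes. Without lung Trm array 5, 5 were called higher, and without whole lung array 1, 1. Oasl2, a synthetase-like antiviral protein, differed by -1.90 ± 0.78 (limma adjusted p = 0.0483), a call lost without lung Trm arrays 4, 5 or 6 and without each whole lung array (adjusted p from 0.0601 to 0.150), under quantile normalization and with the deposited table.

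Plasma protein genes of hepatocytes were unequal among the whole lung arrays. Alb, albumin, lay at -3.70, -9.33 and -4.10 on whole lung arrays 1, 2 and 3, Fgb, a fibrinogen chain, at -3.36, -6.81 and -3.71, Ahsg, a plasma glycoprotein, at -3.19, -5.78 and -3.69, and Serpina1c, an antitrypsin, at -2.51, -5.41 and -3.02. Array 2 was the lowest for all 4. None was well above background on any lung Trm array, and all 4 were called lower in lung Trm. Secretory airway genes ran the other way: Scgb3a1 lay at -2.40, -0.02 and -2.69, Bpifb1, a mucosal defence protein, at -4.18, -1.81 and -4.49 and Reg3g, an antibacterial lectin, at -6.67, -3.47 and -7.15, with array 2 the highest each time.

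Probes of olfactory receptors, chemosensory genes of the nose, were above background on every array of a group more often for the whole samples. Of 1161 such probes, 42 were well above background on every whole lung array and 41 on every whole liver array, with 37 shared (88.1% and 90.2% of each list). The counts were 26 for whole PBMC, 25 for whole intestine and 9 for lung Trm. Whole lung has 3 arrays and lung Trm 6, so the rule is stricter for lung Trm. Of all named probes, 34.1% were above background on every whole lung array and 23.1% on every lung Trm array, beside 3.62% and 0.775% of olfactory receptor probes. Among 56 olfactory receptor genes tested, 18 were called lower in lung Trm and 0 higher, against 25.8% and 15.7% of all genes. Their median difference was 0.01. By limma, 0 departed from the liver difference and 13 from the intestine difference, against 16% and 22.1% of all genes.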
